A study of Homo sapiens with 41 samples.

Results

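The 78 genes described here are named for the proteins of the mitochondrial ribosome, the particle that translates the mRNAs of mitochondrial DNA. They were taken by name as all protein-coding genes of the count table whose symbol is MRPL or MRPS followed by a number and, in some, a letter, and they make up 78 of 19831 protein-coding genes and of 58721 genes in all. No measured value entered this rule, which was set with earlier results of these data known. All 78 had enough counts to be tested.

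T98G is an established human glioblastoma cell line that can be brought to a resting state by removing serum. Every culture was starved of serum for 72 h and then given medium with 20% fetal calf serum, except the culture at 0 min, which was harvested starved. RNA depleted of ribosomal RNA was sequenced at every 10 min from 0 to 400 min, in 41 libraries with 1 library per time point, so no time point had a replicate and each error below comes from the spread of the libraries around a smooth curve fitted over time. A normalized count is the read count of a gene divided by the size factor of its library.

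Mitochondrial ribosomes have a large and a small subunit. Their RNAs are encoded by mitochondrial DNA, whereas all their proteins are encoded in the nucleus, translated in the cytosol and imported. Some of these proteins have a homologue in the bacterial ribosome and others were added in the mitochondrial lineage. The finished ribosome synthesizes the subunits of the respiratory chain that mitochondrial DNA encodes. Of the 78 genes, 51 encode large subunit proteins and 26 small subunit proteins. MRPS36 carries the name but encodes a component of the oxoglutarate dehydrogenase complex, and MRPS18A and MRPS30 encode large subunit proteins despite their symbols.

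Libraries held 18206982 to 64948114 counts (median 41773419), and the 78 genes took 0.189% to 0.245% of them, with the lowest share at 50 min and the highest at 330 min. The serum response was present, with 16477 normalized counts of FOS at 30 min against 238 at 0 min. EGR1 had 4832 at 30 min against 359 at 0 min, and MYC had 5252 at 60 min against 734 at 0 min. VIM and CD44, which mesenchymal glioma cells express, averaged 50048 and 23721 normalized counts, OLIG2 and NES averaged 34.0 and 38.3, and the glial markers SOX2, GFAP and S100B averaged 0.237, 1.66 and 1.29. Markers of blood, endothelial, epithelial and liver cells (PTPRC, PECAM1, EPCAM and ALB) averaged 3.36, 11.5, 11.6 and 0.528. A count gives a share of the RNA of a culture, so a change in RNA per cell and a change in the number of cells that carry it cannot be told apart.

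The libraries also differed from each other by the GC content of transcripts. Across 11887 protein-coding genes with a mean of at least 50 normalized counts, Spearman's rho between the GC content of the canonical transcript and the departure of a library from the fitted curves ran from -0.80 at 90 min to 0.81 at 30 min. This is a correlation across genes of 1 library, and genes are not independent replicates. The counts of members called are given below also with this trend removed and with other bases than the 0 min library.

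The DNA before the start of a gene is shown for 6 members whose RNA behaved differently: MRPL3, MRPL17 and MRPS23, which were higher at 400 min than at 0 min (log2 change 1.20, 0.79 and 0.82), MRPS18A and MRPS18B, paralogs of which only MRPS18A passed the test at 400 min, and MRPS6, which fell. RefSeq start sites (GRCh38.p14) were matched for 69 members, and each line gives the 250 bases before the start, 5′ to 3′ on the strand of the gene. Capitals mark CCGGAA, the core bound by ETS factors such as GABP, GCATGCGC, the core bound by NRF1, and CACGTG, the E-box bound by MYC, each searched on both strands. MRPL17 and MRPS23 were chosen after their values and windows were seen.
MRPL3: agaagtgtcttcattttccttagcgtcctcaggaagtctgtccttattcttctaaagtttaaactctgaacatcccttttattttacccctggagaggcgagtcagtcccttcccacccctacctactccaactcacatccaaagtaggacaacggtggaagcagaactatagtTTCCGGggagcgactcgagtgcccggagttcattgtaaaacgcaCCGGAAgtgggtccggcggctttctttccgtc
MRPL17: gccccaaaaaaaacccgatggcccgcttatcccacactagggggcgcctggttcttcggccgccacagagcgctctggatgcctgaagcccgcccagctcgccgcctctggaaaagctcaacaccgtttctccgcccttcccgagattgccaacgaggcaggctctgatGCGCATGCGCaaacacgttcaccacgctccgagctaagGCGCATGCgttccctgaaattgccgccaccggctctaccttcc
MRPS23: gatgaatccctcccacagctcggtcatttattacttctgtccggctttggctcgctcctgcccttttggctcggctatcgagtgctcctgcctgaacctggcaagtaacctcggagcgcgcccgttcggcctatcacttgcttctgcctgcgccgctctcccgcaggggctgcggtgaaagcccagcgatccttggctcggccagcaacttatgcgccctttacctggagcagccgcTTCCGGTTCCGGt
MRPS18A: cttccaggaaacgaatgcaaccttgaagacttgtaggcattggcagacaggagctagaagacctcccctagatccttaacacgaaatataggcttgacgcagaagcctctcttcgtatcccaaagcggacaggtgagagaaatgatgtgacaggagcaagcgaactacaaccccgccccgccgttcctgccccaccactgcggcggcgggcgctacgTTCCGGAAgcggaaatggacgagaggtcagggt
MRPS18B: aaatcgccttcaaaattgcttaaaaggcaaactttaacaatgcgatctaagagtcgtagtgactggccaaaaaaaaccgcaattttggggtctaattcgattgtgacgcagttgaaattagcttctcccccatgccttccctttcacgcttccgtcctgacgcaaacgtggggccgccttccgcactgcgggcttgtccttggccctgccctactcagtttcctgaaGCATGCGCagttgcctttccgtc
MRPS6: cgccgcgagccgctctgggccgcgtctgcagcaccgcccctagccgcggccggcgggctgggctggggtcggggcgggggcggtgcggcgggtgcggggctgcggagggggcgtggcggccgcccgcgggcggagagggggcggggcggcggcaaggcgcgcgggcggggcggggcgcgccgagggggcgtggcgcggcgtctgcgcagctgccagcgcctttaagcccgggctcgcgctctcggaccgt

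The MRPL3 window (chr3:131502972-131503221, minus strand) and the MRPS23 window (chr17:57850045-57850294, minus strand) each held 2 matches to the ETS core. The MRPL17 window (chr11:6683341-6683590, minus strand) held 3 matches to the NRF1 core, 2 of which overlap on opposite strands. The MRPS18A window (chr6:43687792-43688041, minus strand) had 2 overlapping matches to the ETS core, and the MRPS18B window (chr6:30617590-30617839, plus strand) had 1 match to the NRF1 core. None of these 3 motifs was in the MRPS6 window (chr21:34073328-34073577, plus strand), which held 9 matches to GGGCGG, the GC box bound by SP1. The window of MRPL34, the other member lower at 400 min, held 1 match to the ETS core. Among members with matched start sites and log2 changes of 0.99 to 1.20, MRPL3 and MRPL32 had matches to these 3 motifs. MRPS35, MRPL12, MRPS30 and MRPS12 had none. A match describes the letters of the window and does not show that a factor binds there.

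Over all members, the ETS core stood in 33 of 69 windows (47.8%), against 20.3% of 15305 windows of protein-coding genes. The NRF1 core was in 6 member windows (8.70%, against 3.93% of all windows) and the E-box in 5 (7.25%, against 7.91%). The YY1 core, ATGGCGG, was also searched on both strands and stood in 5 member windows (7.25%, against 3.18%). Windows with the GC box made up 55.1% of member windows and 59.5% of all windows. The median log2 change at 400 min was 0.51 for the 33 members with the ETS core and 0.44 for those without it, a difference that was not tested.

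Most members were higher at the end of the course than at its start. At 400 min 56 of 78 genes were higher than at 0 min and 2 were lower, at an adjusted p below 0.01 from edgeR's quasi-likelihood test with Benjamini-Hochberg adjustment over 21629 genes, and 20 did not pass. The background was large: 24.2% of all genes tested were higher and 22.4% lower at that time, and 31.0% and 25.6% of protein-coding genes. The 56 rises were moderate, at a median of 1.48-fold and a range of 1.15-fold to 2.30-fold, and 6 of them reached 2-fold. The median log2 change of all 78 members was 0.46, against 0.03 for protein-coding genes, and the standard error of a single member was 0.09 at the median. A fit limited to genes with a mean of at least 50 normalized counts kept all 78 members. It called 57 higher and 2 lower, beside 35.7% and 26.6% of protein-coding genes, whose median log2 change was 0.08.

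**Figure D1:**
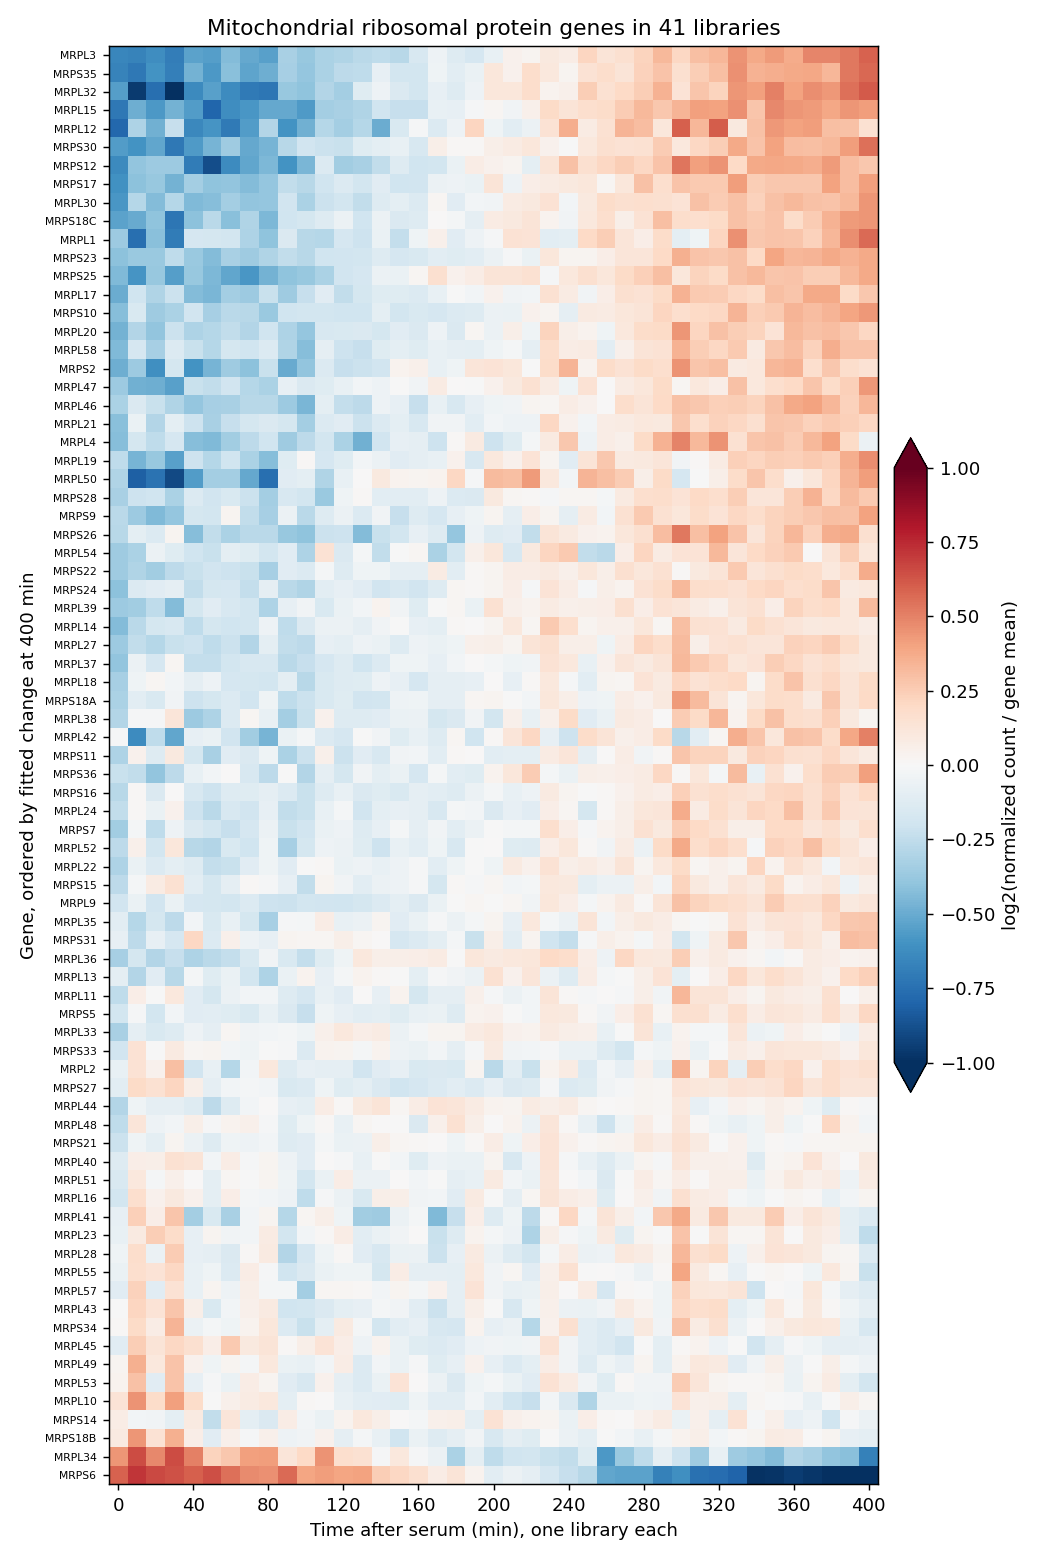
Normalized counts of the 78 genes (rows, ordered by the fitted change at 400 min) in the 41 libraries (columns, minutes after serum), as log2 of the ratio to the gene's own mean. Most rows turn from blue to red over the course, MRPS6 and MRPL34 at the bottom turn the other way, and single columns such as 300 min stand out across many rows.

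The number of members called grew along the course. At 30 and 60 min no member was called in either direction, where 1.71% and 5.15% of all genes were higher and 0.342% and 1.23% lower. At an unadjusted p below 0.05, 22 members were higher and 2 lower at 30 min, and 10 were higher and none lower at 60 min, and DESeq2's Wald test called 1 member higher at 30 min and none at 60 min. At 120 min 19 members were higher and 1 was lower (13.6% and 6.75% of all genes, 17.7% and 6.91% of protein-coding genes). At 240 min 47 were higher and 3 lower (21.6% and 18.5% of all genes, 27.6% and 20.9% of protein-coding genes). All 19 genes higher at 120 min were also higher at 240 min, and all 47 higher at 240 min were also higher at 400 min. The median log2 change of the 78 genes stood at 0.16 (30 min), 0.09 (60 min), 0.16 (120 min), 0.32 (240 min) and 0.46 (400 min). The early medians turned with the base: without the 0 min library they were -0.03 at 30 min and -0.05 at 60 min, and against 20 min they were -0.03 and -0.09. With spike-in size factors they were 0.009 and -0.14, and 2 of 78 members were above 0 at 60 min. These factors also moved the median of all genes with a mean of at least 50 normalized counts. It was -0.07 at 30 min and -0.21 at 60 min, against 0.07 and 0.02 in the reported fit.

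A change over the whole course, which tests all terms of the curve together, was called for 68 members, against 75.5% of all genes, and an autocorrelation between neighbouring libraries (Ljung-Box test at lag 1) for 59 members, against 60.9% of all genes. In the deposited values alone, with no curve, the 3 libraries at 380, 390 and 400 min all lay above the 3 at 0, 10 and 20 min for 53 members and all below them for 4 members. Of all genes, 31.6% were entirely above and 31.6% entirely below. The sum of the 78 genes was 100329, 99272 and 101168 normalized counts at 380, 390 and 400 min, against 76546, 85787 and 81865 at 0, 10 and 20 min. These sums do not overlap, and the 0 min library was the lowest of its 3.

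How many members were called depended on the first library. The fitted curves of many members bend upward between 0 and 20 min, so the change against 20 min in the same fit was smaller. On that base 42 members were higher and 8 lower at 400 min (27.1% and 27.2% of all genes), with a median log2 change of 0.25. Without the 0 min library the base is extrapolated and the median standard error grew to 0.23, and 8 members were higher and 1 lower at 400 min, with 61 of 78 fitted changes still positive. In that fit 10.3% of the members were higher, against 11.4% of protein-coding genes, so their share of calls lay near the background, and their median log2 change was 0.32, against 0.10. Comparing the 3 last libraries with those at 10, 20 and 30 min gave 42 higher and 7 lower (26.9% and 25.8% of all genes). Size factors from the RNA spike-ins, which vary more between libraries, gave 19 higher and 2 lower with a median log2 change of 0.49. Removing the GC trend of each library gave 46 higher and 4 lower, and removing only the GC trend of the departures from the curves gave 56 higher and 2 lower.

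Genes of both subunits rose. Of 51 large subunit genes 34 were higher and 1 lower at 400 min (median log2 change 0.44), and of 26 small subunit genes 21 were higher and 1 lower (0.50). Split by origin, 37 of 46 genes with a bacterial homologue were higher and 2 lower (median 0.48), and 18 of 31 found only in mitochondrial ribosomes were higher and none lower (median 0.41). Leaving out the 0 min library, 4 of 51 large subunit genes and 4 of 26 small subunit genes were higher, beside 11.4% of protein-coding genes. These splits were not tested.

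**Figure D2:**
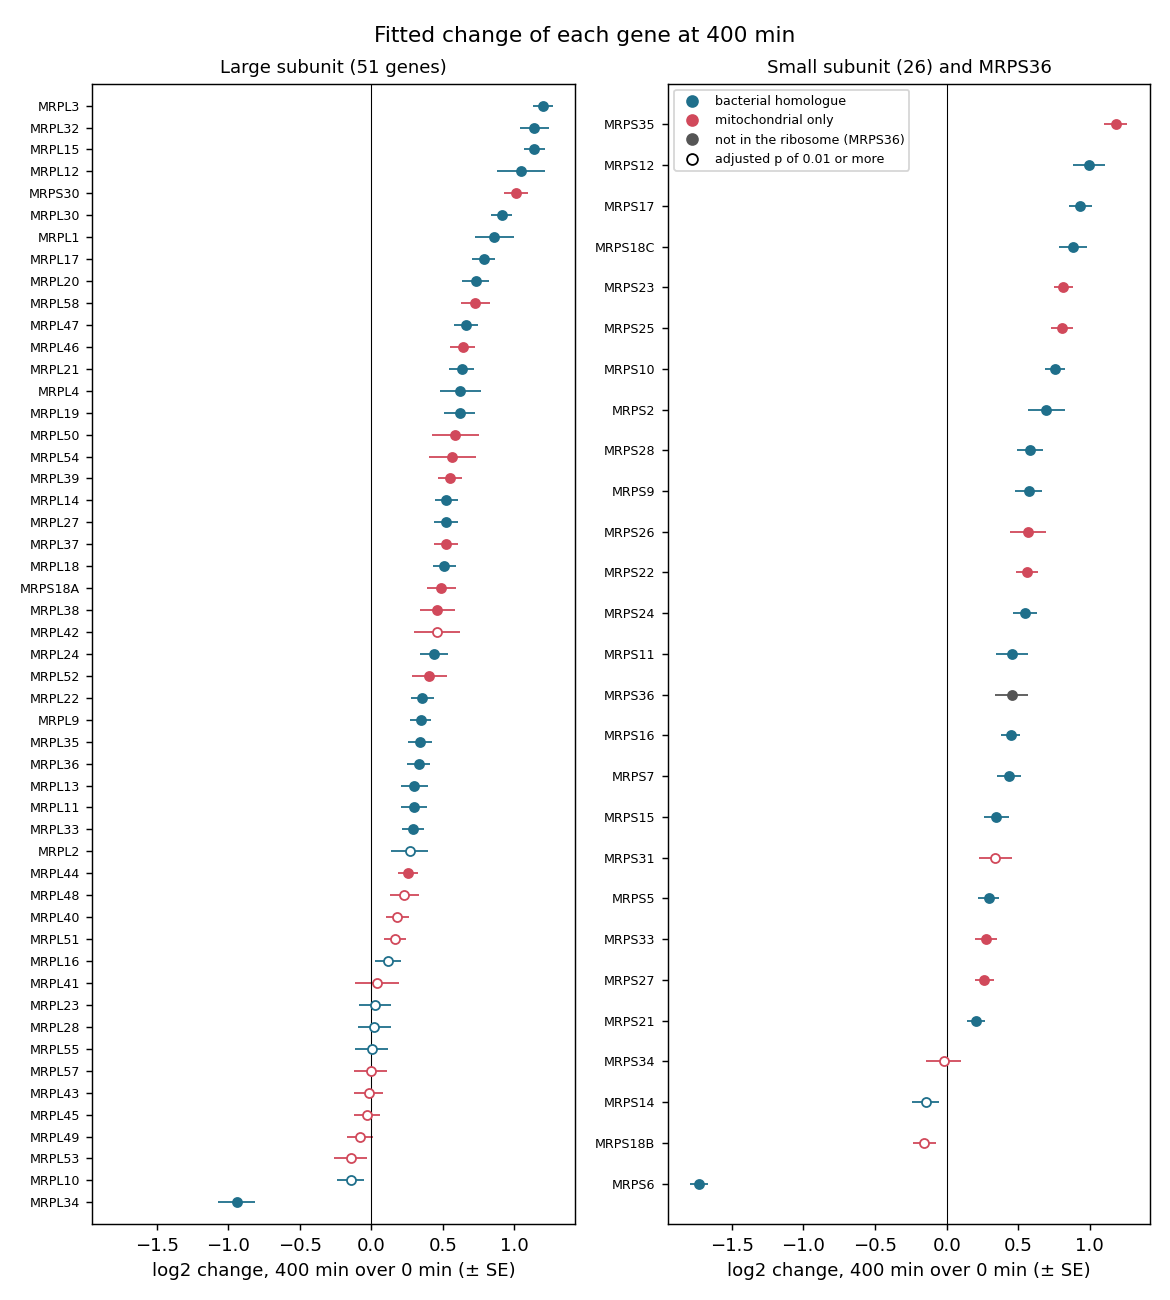
Fitted log2 change at 400 min over 0 min with its standard error for each gene, large subunit on the left and small subunit and MRPS36 on the right. Filled circles passed an adjusted p of 0.01. Most genes lie between 0 and 1.2, and MRPS6 (-1.73) and MRPL34 (-0.94) lie apart.

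Among the large subunit proteins, MRPL3, homologue of a core protein near the peptidyl transferase centre of the bacterial ribosome, had the largest change against 0 min. It had 3613, 3711 and 3878 normalized counts at 380, 390 and 400 min, against 1633, 1621 and 1675 at 0, 10 and 20 min. The early and late libraries do not overlap, and the fitted log2 change was 1.20 (SE 0.07, adjusted p = 9.2e-20 by edgeR). MRPL3 ranked first of the large subunit genes under 12 of 19 alternatives and MRPL32 under 6, among them the fit without the 0 min library (MRPL32 1.35, MRPL3 1.15) and the base at 20 min (1.53 and 1.22). Of the 12, the threshold of 0.05 uses the reported fit itself and could not change the order. No filter or a mean of at least 50 left MRPL3 at 1.20. MRPL12 ranked first with the GC trend of each library removed (1.23, against 1.04 for MRPL3). The MRPL3 curve passed the middle of its rise at 198 min. MRPL3 lies on the minus strand of chromosome 3 (131462212 to 131502983, GRCh38).

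MRPL32, a zinc-binding protein that is cleaved after import before it joins the ribosome, had 2979, 3231 and 3375 normalized counts at 380, 390 and 400 min, against 1503, 1134 and 1306 at 0, 10 and 20 min. All late libraries were more than any early one, with a log2 change of 1.14 (SE 0.10, adjusted p = 1.9e-13 by edgeR). MRPL15 had 2258, 2349 and 2313 late, against 1056, 1234 and 1162 early, again without overlap (log2 change 1.14, SE 0.08). MRPL12, the protein of the flexible stalk that contacts translation factors, had 786, 780.3 and 708 late, against 370.4, 514 and 457 early. Its log2 change was 1.04 (SE 0.17), and its 0 min count was the lowest of all 41. A readthrough gene that shares 701 bases of exon with MRPL12 averaged 123% of its count. MRPL12 reached its highest count, 969, at 320 min. MRPS30, a large subunit protein found only in mitochondria, had 2047, 2191 and 2405 late, against 1112, 1084 and 1144 early (log2 change 1.01, SE 0.08). MRPL30 had 1870, 1925 and 2085 late, against 1028, 1261 and 1138 early (log2 change 0.91, SE 0.08), and it shares exons on the same strand with 2 other coding genes of the table that averaged 38.1% and 32.6% of its count. Without the 0 min library the calls of MRPL12 (0.81, adjusted p = 0.20 by edgeR) and MRPL30 (0.62, adjusted p = 0.013) were lost.

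In the small subunit, MRPS35, a protein found only in mitochondria, had the largest rise, except with the GC trend of each library removed (MRPS12 1.09, MRPS35 1.01). It had 2457, 2813 and 2914 normalized counts at 380, 390 and 400 min, against 1230, 1190 and 1292 at 0, 10 and 20 min. The early and late ranges do not overlap (log2 change 1.18, SE 0.08, adjusted p = 6.4e-17 by edgeR), and MRPS35 also had the largest log2 change of the members called at 120 min (0.41, SE 0.08). MRPL12 had 0.42 (SE 0.16, adjusted p = 0.047) at that time and did not pass. MRPS12, a protein of the decoding centre, had 1055, 972 and 946 late, against 503, 597 and 609 early (log2 change 0.99, SE 0.11). MRPS17, an RNA-binding protein with a bacterial homologue, had 1369, 1283 and 1371 late, against 680.5, 780.1 and 795 early (log2 change 0.93, SE 0.08), and a readthrough gene with 471 shared bases averaged 83.6% of its count. Its call was lost without the 0 min library (0.69, adjusted p = 0.013 by edgeR). Among called members the next changes at 120 min were those of MRPS17 (0.39), MRPS30 (0.37) and MRPS18C (0.36).

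**Figure D3:**
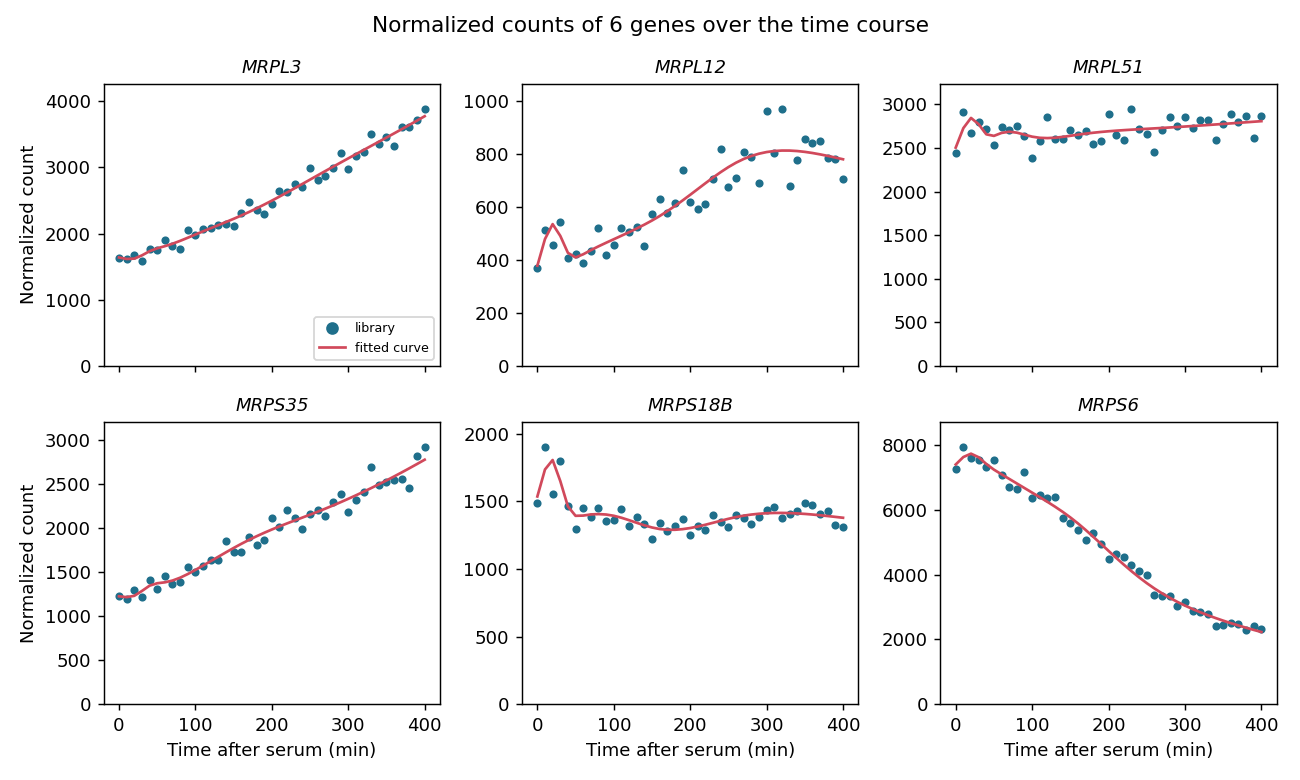
Normalized counts in each library (points) and fitted curves (lines) for 6 genes over 0 to 400 min, each on its own axis from 0. MRPL3 and MRPS35 climb throughout, MRPL12 climbs with more scatter, MRPL51 stays around its median of 2712, MRPS18B has its highest value at 10 min, and MRPS6 declines.

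MRPS18A, MRPS18B and MRPS18C encode 3 paralogs related to 1 bacterial small subunit protein, and the protein of MRPS18A sits in the large subunit. MRPS18C had 1039, 1099 and 1109 normalized counts at 380, 390 and 400 min, against 564, 576 and 618 at 0, 10 and 20 min, with a log2 change of 0.89 (SE 0.10, adjusted p = 1.2e-10 by edgeR). MRPS18A had 901, 817 and 861 late, against 602, 697 and 672 early, and rose by less, with a log2 change of 0.49 (SE 0.10, adjusted p = 6.3e-05). MRPS18B had 1427, 1327 and 1307 late, against 1489.7, 1898 and 1552 early. All 3 late libraries were under all 3 early ones, but the fitted log2 change of -0.16 (SE 0.08, adjusted p = 0.094) did not pass the threshold at 400 min. Against 20 min in the same fit MRPS18B was lower (-0.39, adjusted p = 3.1e-06). Without the 0 min library the calls of MRPS18C (0.62, adjusted p = 0.087) and MRPS18A (0.38, adjusted p = 0.35) were lost. The difference between the paralogs was not tested.

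MRPS6, homologue of a small subunit protein of the bacterial platform, was the member with the most counts and fell most. It had 2281, 2414 and 2329 normalized counts at 380, 390 and 400 min, against 7273, 7928 and 7614 at 0, 10 and 20 min. The log2 change was -0.24 (SE 0.06) at 120 min, -0.92 (SE 0.06) at 240 min and -1.73 (SE 0.06, adjusted p = 9.4e-27 by edgeR) at 400 min. Its share of the counts of the 78 genes was 2.30% at 400 min, against 9.50% at 0 min, and the sum of the other 77 genes was 98839 normalized counts at 400 min, against 69273 at 0 min.

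SLC5A3, the gene of a sodium and myo-inositol cotransporter, lies within the MRPS6 locus on the same strand of chromosome 21 (MRPS6 at 34073224 to 34143034, GRCh38), and 265 bases of exon belong to both genes. SLC5A3 had 4849, 5483 and 5623 normalized counts at 380, 390 and 400 min, against 31251, 20000.5 and 22835 at 0, 10 and 20 min, with a log2 change of -2.61 (SE 0.17). Over the 41 libraries the log2 values of both genes had a Pearson r of 0.97, as a description of values that share libraries and reads. A read in a shared exon was counted for each gene. At the mean count per base of SLC5A3, the 265 shared bases would hold 322 counts, 6.66% of the mean MRPS6 count. A lncRNA of the locus that shares 294 bases of exon with MRPS6 averaged 1303 counts and had a log2 change of -1.81 (SE 0.09). Which transcripts of the locus gave the MRPS6 reads was not tested.

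MRPL34, homologue of a short large subunit protein of bacteria, was the other gene that fell. It had 187, 184 and 154 normalized counts at 380, 390 and 400 min, against 334, 387 and 343 at 0, 10 and 20 min. These values do not overlap, and the log2 change was -0.94 (SE 0.13, adjusted p = 3.4e-08 by edgeR). With the 0 min library left out, its change of -1.08 missed the threshold (adjusted p = 0.017 by edgeR). No other gene of the table shares exon with it on its strand. MRPL10, which anchors the stalk proteins, was lower at 240 min (log2 change -0.27, SE 0.08, adjusted p = 0.0067) and had a log2 change of -0.15 (SE 0.09, adjusted p = 0.19) at 400 min. It had 899, 935 and 911 normalized counts at 380, 390 and 400 min, against 988, 1227 and 1023 at 0, 10 and 20 min.

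MRPS36, the member outside the ribosome, had 638, 632 and 709.6 normalized counts at 380, 390 and 400 min, against 459, 449 and 405 at 0, 10 and 20 min (log2 change 0.45, SE 0.12, adjusted p = 0.00087 by edgeR). This call was lost with either GC trend removed, with spike-in size factors and without the 0 min library.

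There were 10 genes with no call at any of the 5 times nor over the course. Of these MRPL51, a large subunit protein found only in mitochondria, had the most counts, with 2381 at the lowest, a median of 2712 and 2944 at the highest. Its log2 change at 400 min was 0.16 (SE 0.08, adjusted p = 0.067 by edgeR). MRPL40 ranged between 1229.8 and 1534 normalized counts (median 1374), MRPS34 between 879 and 1358 (median 1054), MRPL57 between 790.7 and 1171 (median 999) and MRPL16 between 636 and 849 (median 755). Their log2 changes at 400 min were 0.18, -0.02, -0.01 and 0.12, with standard errors of 0.08 to 0.12. The standard errors of the 78 genes at 400 min were 0.06 to 0.17, and the smallest log2 change that was called as higher was 0.21.

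The times of the rises were spread. For the 56 genes higher at 400 min, the fitted curve first passed the middle of its rise at a median of 160.0 min (quartiles 16.7 and 197 min). For 17 of them this was before 30 min, in the bend of the curve over the first libraries, and for the other 39 it was between 81.7 and 292 min, with a median of 175 min. For 36 of the 56 the curve was still at its highest at 400 min. The highest single count was at 300 min in 20 of the 56 and at 400 min in 18. The 300 min library lay above the members' curves by a median of 0.10 on the log2 scale, more than any other library, and the 20 min library below them by 0.09. Without the 300 min library 58 members were higher and 2 lower at 400 min, beside 24.5% and 22.5% of all genes.

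Levels per kilobase of exon differed widely between members of the same particle. With the length of all annotated exons merged, MRPL51 was highest (1950.1 normalized counts per kilobase, mean of 41 libraries), followed by MRPL14 (1174), MRPS6 (1131), MRPS21 (1107) and MRPL40 (1042). The lowest were MRPS22 (55.5), MRPS25 (60.2), MRPL42 (73.9), MRPS5 (81.5) and MRPL4 (107). Merged exons include rare long forms, and per kilobase of the canonical transcript the order changed: MRPS6 (5189), MRPL51 (3014) and MRPL33 (2575) were highest and MRPL42 (77.8), MRPL19 (128) and MRPL22 (199) lowest. On that scale the standard deviation of the log2 level across the 78 genes was 1.05 at 380 to 400 min, against 1.13 at 0 to 20 min, and without MRPS6 it was 1.04 against 1.06.

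The size of the change went weakly with GC content. Over the 78 members Spearman's rho between the GC content of the canonical transcript and the log2 change at 400 min was -0.23, and over the 11887 protein-coding genes it was -0.14, both as descriptions. Of the 39 members with less GC 32 were higher at 400 min and 1 lower (median log2 change 0.55). Of the 39 with more GC 24 were higher and 1 lower (0.41). At 120 min 16 and 3 of them were higher, beside 17.7% of protein-coding genes. At 400 min 31.0% of protein-coding genes were higher and 25.6% lower. The median log2 change of protein-coding genes was 0.18 for those with less GC and -0.03 for those with more. The departure of the 400 min library from the curves had a rho of -0.75 with GC content over the 11887 genes.

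Genes of other parts of mitochondrial translation also rose, and each list below stands beside 31.0% higher and 25.6% lower among protein-coding genes at 400 min. Of 5 ribosomal proteins with other symbols, DAP3, a small subunit GTP-binding protein, rose by 0.73 on the log2 scale (SE 0.06) and PTCD3 by 0.27 (SE 0.09), and AURKAIP1 (0.23), GADD45GIP1 (0.18) and CHCHD1 (0.14) did not pass the test. Among 30 assembly factors 16 were higher and 3 lower, with the largest changes for MRM1, an rRNA methyltransferase (1.49, SE 0.18), C1QBP (1.47, SE 0.08) and MTERF3 (1.17, SE 0.16). Translation factors were higher in 8 of 16 and lower in 2, led by the elongation factor GFM1 (1.37, SE 0.10), and by MTRF1L (0.93) and MTFMT (0.83). Mitochondrial aminoacyl-tRNA synthetases were higher in 11 of 20 and lower in 4, led by MARS2 (2.83, SE 0.15), YARS2 (1.02) and WARS2 (0.87). With the 0 min library left out, 4 assembly factors, 3 translation factors and 3 synthetases were higher, beside 11.4% of protein-coding genes.

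Import and chaperone genes, which bring these proteins into the matrix, were higher in 22 of 27 and lower in none, with a median log2 change of 0.83 and the largest changes for TIMM8A (2.24, SE 0.10), TOMM40 (1.72) and GRPEL1 (1.71). Genes for transcription of mitochondrial DNA and processing of its RNA were higher in 12 of 16 and lower in 1, led by PNPT1 (1.84, SE 0.14), TWNK (1.82, SE 0.12) and TFB2M (1.20, SE 0.10). Cytosolic ribosomal protein genes were higher in 55 of 84 and lower in 1, with a median log2 change of 0.33. The largest changes there were those of RPL22L1 (1.30, SE 0.12) and RPL26L1 (0.76, SE 0.08), and of RPL3L, which averaged 1.5 counts and had 0 counts at 390 and 400 min. Nuclear genes of the respiratory chain were higher in 20 of 80 and lower in 2, with a median of 0.09, led by ATP5MK (0.58), SDHB (0.50) and ATP5PB (0.49). In the fit without the 0 min library 11 of 27 import genes and 5 of 16 genes for mitochondrial transcription and RNA processing were higher. So were 3 of 84 cytosolic ribosomal protein genes and none of the respiratory chain genes, beside 8.17% of all genes. The respiratory chain list turned with the base, with 13 of 80 higher and 23 lower against 20 min and a median log2 change of -0.08. On that base 27.1% of all genes were higher and 27.2% lower.

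No RNA transcribed from mitochondrial DNA passed as higher among those listed here. At 400 min 12 of the 13 mRNAs of mitochondrial DNA were lower and the other did not pass (median log2 change -0.49), with the largest changes for MT-CYB (-0.76, SE 0.09), MT-ND4 (-0.69) and MT-ND6 (-0.60). Of the 13, 8 were lower without the 0 min library, all 13 against 20 min, and 1 with spike-in size factors. The rRNAs of the mitochondrial ribosome itself, MT-RNR1 and MT-RNR2, had log2 changes of -0.16 (SE 0.26) and -0.20 (SE 0.20) and no call. Ribosomal RNA was depleted before sequencing, and its part in these values was not tested.

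**Figure D4:**
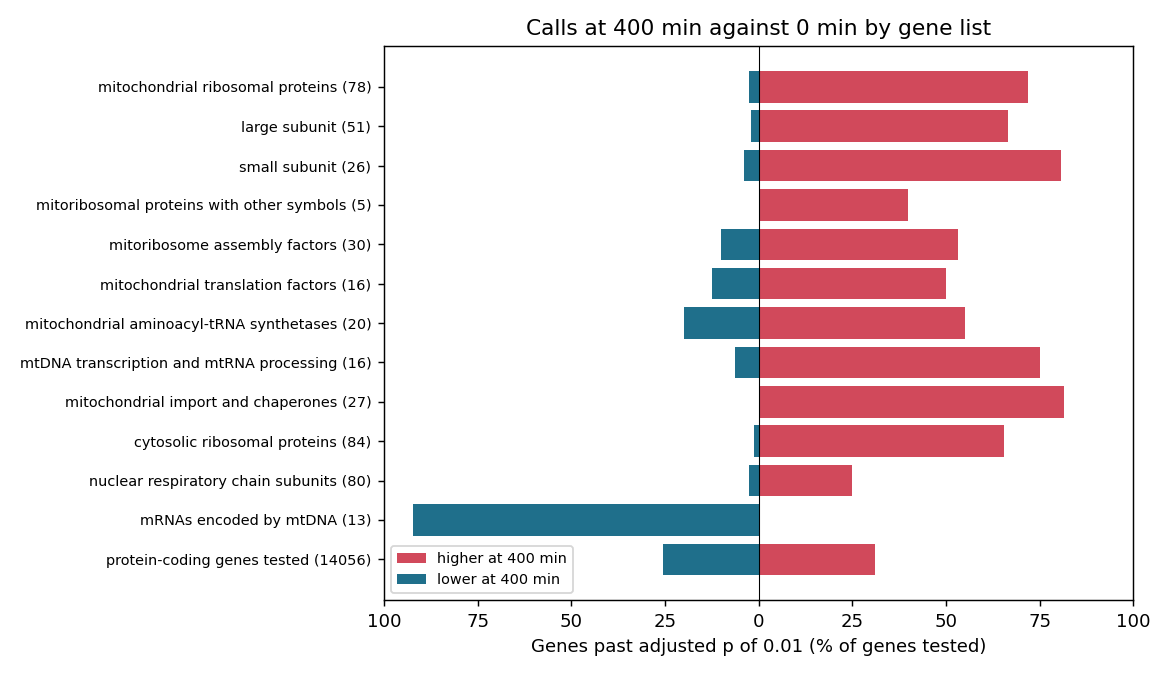
Share of the genes tested in each list (number in brackets) that was higher (right) or lower (left) at 400 min against 0 min. Mitochondrial ribosomal proteins (71.8% higher), import genes (81.5%) and cytosolic ribosomal proteins (65.5%) lie above all protein-coding genes (31.0%). Of the mRNAs of mitochondrial DNA, 92.3% were called lower.

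Regulators of nuclear genes for mitochondria were higher in 6 of 9 and lower in 2. Without the 0 min library 4 were higher and 1 lower, beside 8.17% and 5.24% of all genes. PPARGC1A, a coactivator of mitochondrial biogenesis, fell (-2.88, SE 0.14), with 117, 99.1 and 129 normalized counts at 380, 390 and 400 min, against 838, 663 and 777 at 0, 10 and 20 min. MYC rose by 2.88 on the log2 scale (SE 0.15) and GABPB1, a subunit of GABP, by 1.29 (SE 0.10). NRF1 (0.35, SE 0.10) and GABPA (0.03, SE 0.30, no call) are named after their values were seen, because their motifs are shown above.

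Many members start close to another gene on the opposite strand. Within 1000 bases before the start of the canonical transcript, 26 members had the start of a coding gene that was also tested. In 1 such pair both genes, MRPL46 and MRPS11, are members, and each is counted on both sides. Of the 26 neighbours 9 were higher and 7 lower at 400 min (34.6% and 26.9%), near the 31.0% and 25.6% of protein-coding genes. The median log2 change of the neighbours was 0.17, against 0.52 for the 26 members. Leaving out the 0 min library, 2 neighbours were higher and 3 lower, beside 8.17% and 5.24% of all genes. The pairs named next were chosen after their values were seen. MRPL43 and TWNK, the mitochondrial DNA helicase, start 46 bases apart. MRPL43 had 712, 683 and 664 normalized counts at 380, 390 and 400 min, against 704, 819 and 777 at 0, 10 and 20 min, whereas TWNK had 909.5, 867 and 960.5 late, against 269.7, 296 and 273 early. MRPS12 and SARS2, the mitochondrial seryl-tRNA synthetase, start 181 bases apart, and SARS2 had a log2 change of 0.16 (SE 0.16) beside 0.99 for MRPS12. MRPL47 changed by 0.66 (SE 0.08) and NDUFB5, a subunit of respiratory complex I that starts 156 bases away, by -0.03 (SE 0.08). The changes within a pair were not compared by a test.

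**Figure D5:**
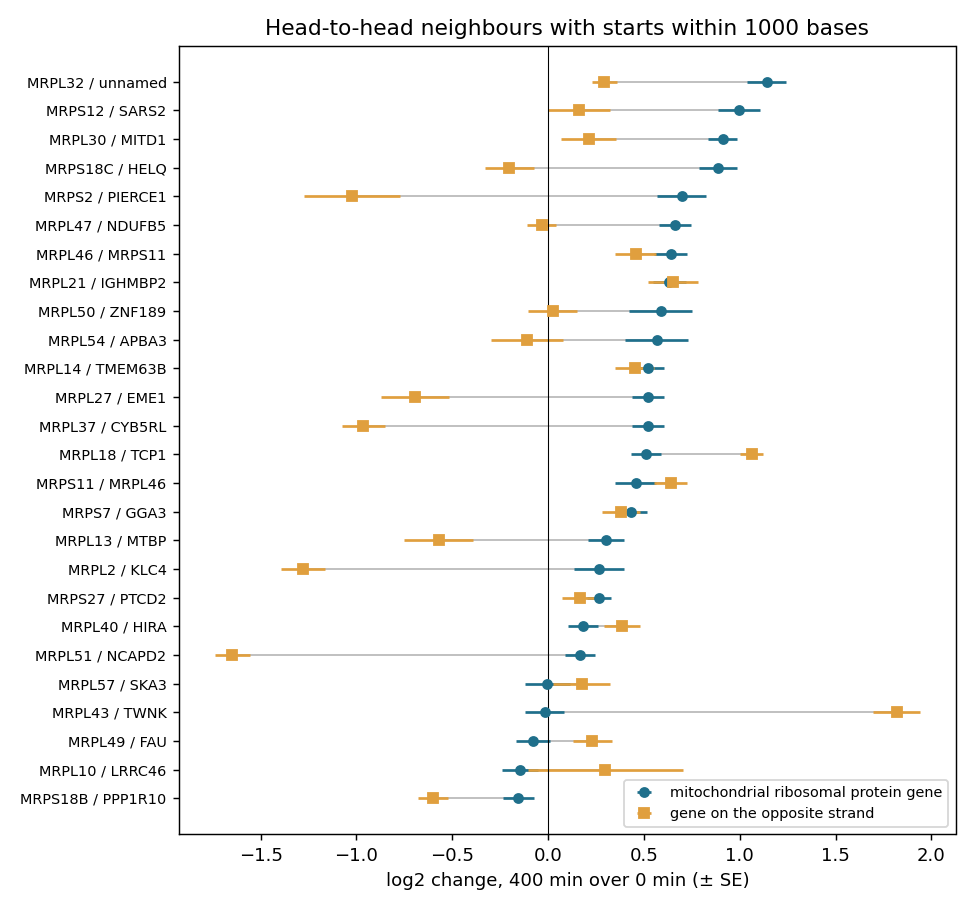
Log2 change at 400 min over 0 min with its standard error for 26 members (circles) and the coding gene that starts within 1000 bases on the opposite strand (squares), 1 pair per row, ordered by the member. The pairs MRPL43 and TWNK (-0.02 and 1.82) and MRPL51 and NCAPD2 (0.16 and -1.65) lie farthest apart. MRPL46 and MRPS11 appear in separate rows, each as a member and as the neighbour of the other.

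Reads shared with other genes limit some values, because a read that overlaps several genes or maps to several places was counted for each. In all, 12 members share exon on the same strand with a gene that averaged over 10% of their count, among them MRPS6, MRPL12, MRPS17, MRPL30 and MRPS28. Of the other 66 members 47 were higher and 1 was lower at 400 min. Annotated pseudogenes named after a member were found for 36 members, and their summed count was over 5% of the member only for MRPS31, where MRPS31P4 and MRPS31P5 averaged 193 and 191 counts beside 388 for the gene, so the MRPS31 count is uncertain.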

How the data were processed

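RNA from 41 cultures of T98G cells was sequenced by the study as 1 library per time point. Per the labels and the methods of the study, the authors trimmed reads with cutadapt 1.11, and used STAR 2.5.2a with GRCh38. The deposited count per gene was made with featureCounts over the exons of GENCODE 29 by strand, in which multi-mapping and multi-overlapping reads count for every gene. A second deposited value, a normalized signal, is that count over a DESeq2 1.24.0 size factor per library. Size factors computed again from the counts matched it within 1.9e-15, and the 41 single tables held the same counts as the joint one. All columns belonged to a sample (0 did not).

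Genes with over 10 counts in 1 library and over 2 in 3 consecutive time points were kept (21629, among them all 78 members), and 45 pseudoautosomal copies were left out. Counts were fitted in edgeR 4.0.16 (with limma 3.58.1 under R 4.3.3) as a natural cubic spline of time (7 degrees of freedom, knots at 20, 40, 60, 100, 160 and 260 min, 33 residual degrees of freedom, common dispersion 0.005116), tested on simulated data. Contrasts of the curve with 0 min were taken at 30, 60, 120, 240 and 400 min, at a Benjamini-Hochberg adjusted p below 0.01 over all 21629 genes. P-values measure the spread of single libraries around a curve, which may be technical. Total counts were 18206982 to 64948114 per library. Positions, exon lengths and GC content come from GENCODE 44 on the same build.

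The members and lists were chosen with earlier results of these data known. Named members were up to 10 with the largest called changes in each direction at 400 min and a mean of at least 50 counts, the 4 largest called at 60 and 120 min, the 5 highest and 5 lowest per kilobase, the 5 with most counts among those with no call, the MRPS18 paralogs and MRPS36, and per other list up to 3 called genes with the largest changes (all genes of lists of 5 or fewer). Alternatives were TMM, spike-in and total-count scaling, no filter or a mean of at least 50, 2 other splines, libraries left out, windows of 3 libraries, DESeq2 1.42.0 and a threshold of 0.05. A base at 20 min, windows without 0 min, removal of GC trends over 20 bins and the alternatives of the other lists were chosen after seeing the data.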

Additional observations from a re-analysis of the deposited data

How the results depend on the processing

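No paired analysis was possible because each time point has 1 library, and no replicate could be left out. Counts are members against 0 min. With a spline of 4 degrees of freedom, 30 min had 8 higher and 2 lower members, beside 12.2% and 6.59% of all genes. At 60 min there were 9 and 3, beside 13.2% and 7.81%. Those lower numbered 7, 7 and 6 at the 3 later times, beside 15.9%, 30.0% and 29.8% of all genes. Median log2 changes were 0.068 at 120 min and 0.34 at 400 min. Evenly spaced knots gave 7, 6 and 4 lower at 120, 240 and 400 min, with medians of 0.23 at 240 min and 0.33 at 400 min. In that fit 15.2%, 23.6% and 24.3% of all genes were lower. Without the 0 min library none was higher or lower at 120 min (0 and 0), 240 min had 4 higher and 1 lower, and 400 min had 8 and 1, with medians of 0.038, 0.17 and 0.32. Of all genes, 3.34%, 6.02% and 8.17% were higher at these times and 0.356%, 2.23% and 5.24% lower. That fit kept 8 of the 56 higher calls and 1 of the 2 lower calls at 400 min. Among the members with the largest changes, the MRPS18 paralogs and MRPS36, the calls lost were those of MRPL12, MRPS17, MRPL30, MRPS18C, MRPL34, MRPS18A and MRPS36. Against 20 min, 2 were higher and 5 lower at 60 min and 8 lower at 120, 240 and 400 min each, with medians of -0.027, 0.14 and 0.25. On that base 7.03% of all genes were higher and 4.76% lower at 60 min. At 120, 240 and 400 min 15.6%, 24.7% and 27.2% of all genes were lower. Windows of 3 libraries gave a median of 0.34. With 10 to 30 min as the base 7 were lower (25.8% of all genes), with a median of 0.28. Spike-in size factors gave 0 higher and 0 lower at 120 min (4.82% and 1.82% of all genes). They gave 10 higher at 240 min (11.1%) and 19 higher at 400 min (12.9%). They also moved the median of all genes with a mean of at least 50 to -0.07 at 30 min and -0.21 at 60 min, against 0.07 and 0.02 in the reported fit. Total counts gave 8 higher and 2 lower at 120 min (10.9% and 8.10% of all genes). Every second time point gave 9 higher and 0 lower at 120 min (10.3% and 3.88%). Without the 4 libraries farthest from the curves 30 min had 8 higher and 1 lower (4.35% and 3.83% of all genes), and 60 min had 1 higher (5.65%). Without the 3 smallest libraries 30 min had 2 higher and 1 lower (2.31% and 1.01%). DESeq2 called 1 higher at 30 min (2.07% of all genes). A threshold of 0.05 gave 3 higher at 30 min (3.07%) and 2 at 60 min (7.25%). With the GC trend of the departures removed, 7 were higher and 3 lower at 30 min (4.88% and 5.88% of all genes). It gave 2 higher at 60 min (6.85%) and 2 lower at 120 min (10.2%). With the GC trend of each library removed, the members lower were 1 (30 min), 3 (120 min), 5 (240 min) and 4 (400 min), with medians of 0.23 and 0.33 at 240 and 400 min. Of all genes, 1.39%, 12.3%, 24.7% and 27.4% were lower at these 4 times. The cause of these changes was not tested. MRPS18B and MRPL10 were called lower at 400 min with either other spline, against 20 min and against 10 to 30 min. MRPS6 was lower at 400 min under all 19 alternatives (log2 change -1.92 to -1.68), of which the threshold of 0.05 uses the reported fit itself.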
